A study of Homo sapiens with 24 samples.

Results

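Metallothioneins and zinc transporters together set how much zinc a cell holds free, stores and moves. Metallothioneins are small proteins rich in cysteine that bind zinc and copper, and their genes lie side by side on chromosome 16. Proteins of the SLC30A family carry zinc out of the cytosol, across the plasma membrane or into vesicles and organelles. Proteins of the SLC39A family carry zinc into the cytosol. MTF1 is the transcription factor that senses zinc and binds metal response elements (MREs) in the promoters of metallothionein genes and of SLC30A1. MT2A is a long-known target gene of glucocorticoids (GCs) in human cells.

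The members were the protein-coding genes in the count table whose GENCODE symbol was MT1 plus a letter, MT2A or MTF1, or began with SLC30A or SLC39A. The rule found 34 genes of 33127, namely 9 metallothioneins, MTF1, 10 SLC30A exporters and 14 SLC39A importers. Of these, 23 had enough counts to be tested and 11 had not. RNA-seq was performed in A549, a line of epithelial cells that was established from a human lung adenocarcinoma. Cells received 100 nM of the synthetic GC dexamethasone (dex) in ethanol (EtOH), or EtOH alone at 0.02% of the medium, for 1, 3, 5, 7, 9 or 11 hours. Each treatment and time point had 2 libraries, labelled as biological replicates, which made 24 libraries of a single cell line. Values are given as CPM, that is counts scaled to libraries of a common size by the TMM method, and were not divided by gene length. Differences are log2 fold changes of dex over EtOH with their standard errors, and a gene was called when its adjusted p was at most 0.1.

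Libraries held between 6708864 and 13748598 counts, with a median of 10109393.5. Among 4 genes known as GC targets (FKBP5, TSC22D3, PER1 and KLF9), 3 rose at 1 hour and all 4 rose at every later time point. The epithelial keratin genes KRT8 and KRT18 were abundant, and the 5 epithelial markers together ranged from 3241 to 5221 CPM with EtOH and from 3872 to 10644 CPM with dex. KRT8 and KRT18 made up most of that sum, and the less abundant markers went both ways. EPCAM was called lower at 5, 7 and 9 hours (log2 fold changes of -0.85 ± 0.22, -0.96 ± 0.21 and -0.71 ± 0.23). KRT19 was called lower at 5 and 9 hours (-0.57 ± 0.18 and -1.03 ± 0.20). CDH1 was called higher at 5 and 7 hours (0.65 ± 0.12 and 0.54 ± 0.11). The lung lineage markers NKX2-1, SFTPB and SFTPC did not exceed 7 counts in any library. Of the markers of other cells, 6 were in the table, and their summed level ranged from 15.0 to 26.4 CPM with EtOH and from 9.41 to 28.9 CPM with dex. PTPRC, a leukocyte marker, did not exceed 3 counts and VWF, an endothelial marker, did not exceed 1 count. Others on the list were detected, with up to 67 counts in a library for CD68, listed as an immune marker. Among the fibroblast markers COL1A1 reached 268 counts, COL3A1 reached 12 and DCN reached 5.

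MTF1 binds a short core that reads TGCACNC or TGCGCNC, and the windows around the RefSeq start sites of members were searched for both cores on both strands. A window ran from 250 bases before the start site to 50 bases after it, on GRCh38.p14. RefSeq windows were at hand for 26 members, among them MT2A, MT1X, MT1H and MT1B but not MT1A, MT1E, MT1F, MT1G or MT1M. At least 1 match was present in 29.6% of all 35116 windows, at least 4 matches in 0.601% and at least 8 matches in 0.0199%. The window of MT2A (chr16:56608334-56608633, plus strand) held 8 matches. The window of MT1X (chr16:56682220-56682519, plus strand) held 4 matches. The window of MT1H (chr16:56669564-56669863, plus strand) also held 8, and that of MT1B held 3. Outside the metallothioneins, 13 of 31 windows held a match and none held more than 3. SLC30A1 had 2. The letters AGAACA, which begin the element bound by the GC receptor, were in none of these 4 metallothionein windows and in 14.8% of all windows. Only these exact letters were searched, and only inside the window. Elements with other letters, cut by the window edge or farther away would be missed, so their absence cannot be inferred. A match here is a string of letters and not a measured binding site.

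The matches are shown for MT2A and MT1X, which carried most of the metallothionein counts, and for MT1H, which had as many matches as MT2A and was almost silent. How the matches relate to the levels was not tested. Capitals mark the core matches. The MT2A matches before the start site are given with up to 8 bases on each side, each read on the strand on which the core begins with TGC.
MT2A, chr16:56608334-56608352: ccgcTGCACCCagcccctt
MT2A, chr16:56608408-56608430, opposite strand: cccggctcTGCACACgggccgcg
MT2A, chr16:56608423-56608445: gagccgggTGCGCCCggcccagt
MT2A, chr16:56608437-56608459: cggcccagTGCGCGCggccgggt
MT2A, chr16:56608488-56608510, opposite strand: gcgctgccTGCACACgccccgcg
MT2A, chr16:56608522-56608544: ggggctttTGCACTCgtcccggc
MT2A, chr16:56608568-56608590: tgccgcgcTGCACTCcaccacgc

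For MT1X and MT1H, the stretch before the first annotated exon is given whole, on the plus strand, so that a core on the other strand reads in reverse and ends with GCA. Both stretches come from RefSeq windows on GRCh38.p14.
MT1X, chr16:56682220-56682423: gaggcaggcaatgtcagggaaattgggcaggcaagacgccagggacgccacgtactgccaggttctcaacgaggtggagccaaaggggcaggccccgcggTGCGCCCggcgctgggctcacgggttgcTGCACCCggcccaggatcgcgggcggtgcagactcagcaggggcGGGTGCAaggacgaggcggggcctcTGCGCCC
MT1H, chr16:56669564-56669813: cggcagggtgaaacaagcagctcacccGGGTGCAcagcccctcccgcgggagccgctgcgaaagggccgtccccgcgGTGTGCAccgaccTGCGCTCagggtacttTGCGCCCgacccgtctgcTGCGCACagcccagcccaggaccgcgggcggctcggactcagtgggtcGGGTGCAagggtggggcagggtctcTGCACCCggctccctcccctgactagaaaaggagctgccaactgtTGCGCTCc

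**Figure D1:**
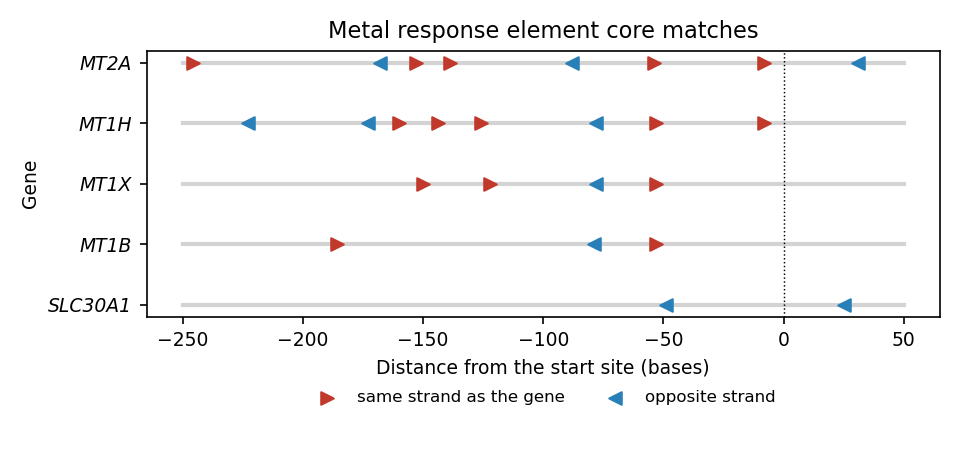
Position of each metal response element core match (TGCACNC or TGCGCNC) in the windows of 5 members, in bases from the RefSeq start site, with arrows for the strand. MT2A and MT1H each hold 8 matches, MT1X holds 4, MT1B 3 and SLC30A1 2.

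The metallothioneins rose with dex. In bulk RNA a level averages over the cells, so more expressing cells and more RNA per cell cannot be told apart. Of the 5 that could be tested, 1 was called higher at 1 hour, 3 at 3 hours, 5 at 5, 7 and 9 hours and 4 at 11 hours, and none was called lower at any time point. Among all 19897 features tested, 0.523% were called higher at 1 hour, 7.66% at 3 hours, 11.2% at 5 hours, 13.4% at 7 hours, 9.79% at 9 hours and 5.31% at 11 hours. The median log2 fold change of the 5 metallothioneins was 0.03 at 1 hour, 1.36 at 3 hours, 3.30 at 5 hours, 3.23 at 7 hours, 2.53 at 9 hours and 2.45 at 11 hours. Over all features the median lay between -0.0097 and 0.0044. MT2A and MT1X made up between 96.2% and 96.8% of metallothionein counts with dex and between 94.1% and 95.6% with EtOH.

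MT2A (chr16:56608199-56609497, GENCODE release 29 on GRCh38) was the most abundant metallothionein. It lay between 33.1 and 61.7 CPM in the 12 EtOH libraries, with a median of 37.4. At 1 hour it was 59.4 and 71.4 CPM with dex against 46.9 and 49.5 with EtOH. The groups did not overlap, but the log2 fold change of 0.44 ± 0.13 was not called (adjusted p = 0.225). At 3 hours MT2A was 111 and 117 CPM with dex against 38.5 and 36.0 with EtOH. At 5 hours it was 390 and 404 CPM with dex against 46.0 and 34.3 with EtOH, which was its highest level. The rise at 5 hours was 9.88-fold, with a log2 fold change of 3.30 ± 0.12 (adjusted p = 2.38e-24, edgeR quasi-likelihood test). At 7 hours MT2A was 338 and 310 CPM with dex against 33.1 and 36.0 with EtOH. At 9 hours it was 276 and 279 CPM with dex against 35.6 and 61.7 with EtOH. At 11 hours it was 210 and 211 CPM with dex against 36.3 and 40.6 with EtOH. Every dex library from 3 hours onward was above every EtOH library, and the 2 dex libraries lay close together at each of these time points. The EtOH libraries at 9 hours lay farther apart, and the log2 fold change there was 2.53 ± 0.23, or 2.97 without EtOH replicate 2 and 2.19 without EtOH replicate 1. The dex effect on MT2A differed between time points (adjusted p = 4.22e-08, joint fit of 24 libraries).

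MT1X (chr16:56682424-56684196) encodes another metallothionein that many cell types express. It lay between 9.98 and 15.0 CPM with EtOH and between 19.6 and 120 CPM with dex, and the arms did not overlap. At 1 hour MT1X was 19.6 and 29.5 CPM with dex against 14.4 and 15.0 with EtOH. It was the only member called at that hour. The log2 fold change was 0.73 ± 0.18 and the adjusted p 0.0986, close to the threshold. The call was lost under 9 of 14 alternatives, among them leaving out dex replicate 2 (0.42, adjusted p = 0.246), EtOH replicate 1 (adjusted p = 0.390) or EtOH replicate 2 (adjusted p = 0.387). Both dex libraries at 1 hour lay above both EtOH libraries, but farther from each other than the lower of them lay from EtOH. At 3 hours MT1X was 41.7 and 43.9 CPM with dex against 12.7 and 11.6 with EtOH. At 5 hours it was 120 and 119 CPM against 12.2 and 11.4. At 7 hours it was 114 and 105 CPM against 10.6 and 9.98, which gave its largest log2 fold change, 3.41 ± 0.11 (adjusted p = 1.12e-22). This was a 10.6-fold rise. At 9 hours MT1X was 93.1 and 97.4 CPM with dex against 10.3 and 14.6 with EtOH. At 11 hours it was 77.4 and 62.8 CPM against 11.6 and 10.6, a log2 fold change of 2.66 ± 0.18. The level with dex was therefore lower at 11 hours than at 5 hours in both libraries, as it was for MT2A. The dex effect on MT1X differed between time points (adjusted p = 3.13e-09).

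**Figure D2:**
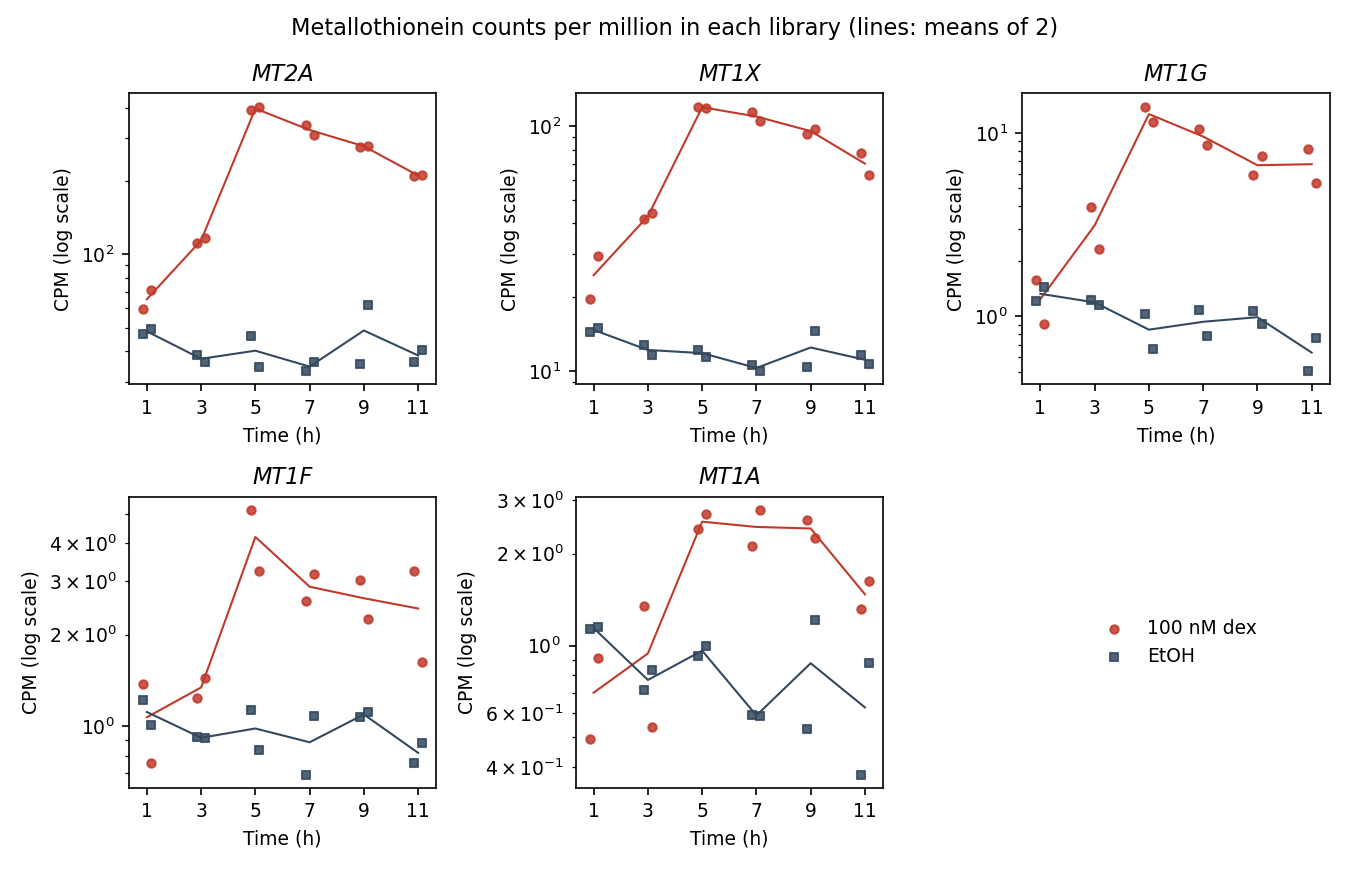
CPM (log scale) of the 5 tested metallothioneins against time in hours, with a point for each library and lines through the means of 2 libraries. MT2A with dex reached 390 and 404 CPM at 5 hours, while its EtOH libraries stayed between 33.1 and 61.7 CPM.

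MT1G, MT1F and MT1A encode metallothioneins of the same cluster and had far fewer counts. MT1G was not called at 1 hour (log2 fold change of -0.03 ± 0.45). It rose from 3 hours on, and at 5 hours was 13.9 and 11.4 CPM with dex against 1.03 and 0.667 with EtOH. The log2 fold change of 3.91 ± 0.30 (adjusted p = 1.25e-14), a 15.0-fold rise, was the largest of any tested member at any time point. These values rested on 127 and 102 counts in the dex libraries and 10 and 8 in the EtOH libraries. The smaller rise of MT1G at 3 hours, 1.36 ± 0.37, was lost as a call without dex replicate 1 (adjusted p = 0.285) and under DESeq2. MT1F was 5.13 and 3.25 CPM with dex at 5 hours against 1.13 and 0.833 with EtOH, or 47 and 29 counts against 11 and 10. Its log2 fold change was 2.10 ± 0.37 (adjusted p = 1.70e-05). The dex libraries of MT1F were higher than those of EtOH but differed widely from each other. At 7 hours its log2 fold change was 1.66 ± 0.40, a call lost without dex replicate 2 (adjusted p = 0.108). At 9 hours it was 1.23 ± 0.38, and the call was lost without either dex replicate (adjusted p = 0.263 without dex replicate 1 and 0.116 without dex replicate 2). At 11 hours it was 1.56 ± 0.49 (adjusted p = 0.0841), and the call was lost without dex replicate 1, EtOH replicate 1 or EtOH replicate 2. MT1A was 2.12 and 2.78 CPM with dex at 7 hours against 0.593 and 0.587 with EtOH, or 23 and 21 counts against 6 and 6. Its log2 fold change of 2.00 ± 0.46 (adjusted p = 0.00111) was the largest it reached. At 5 hours it was 1.38 ± 0.40, a call lost under DESeq2. At 9 hours it was 1.47 ± 0.43, and the call was lost without dex replicate 1, dex replicate 2 or EtOH replicate 1. At 11 hours MT1A was not called (1.18 ± 0.54, adjusted p = 0.292). Under DESeq2 the calls of MT1F and MT1A at 9 hours and of MT1F at 11 hours were lost too.

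**Figure D3:**
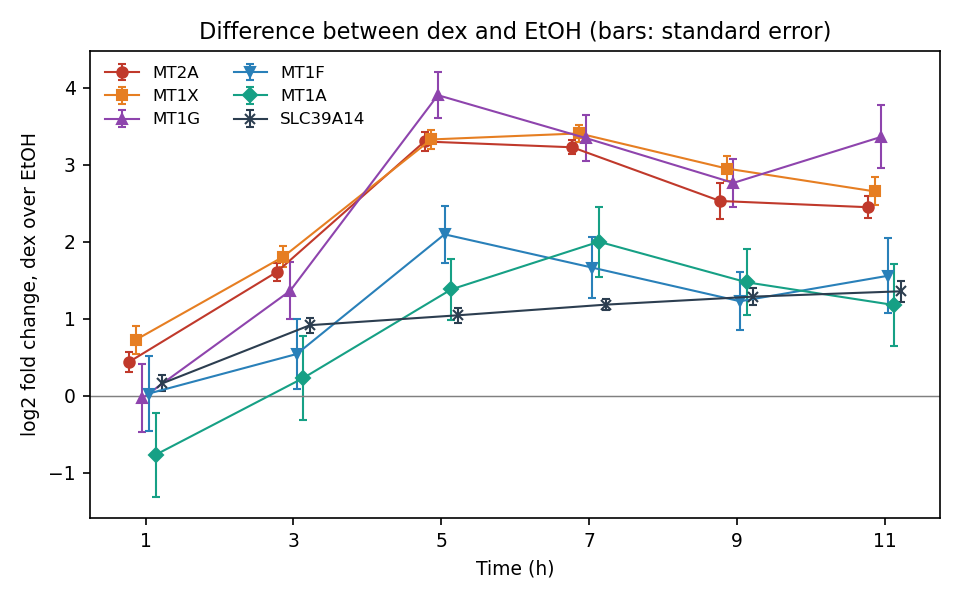
log2 fold change of dex over EtOH against time in hours for the 5 tested metallothioneins and the importer SLC39A14, with standard errors as bars. MT2A, MT1X and MT1G stood above 2 from 5 hours on, while SLC39A14 went from 0.16 at 1 hour to 1.36 at 11 hours.

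Within an arm, the other metallothioneins can be set against MT2A in CPM. With EtOH, MT1X was between 25.6% and 32.7% of the MT2A level over the 6 time points, and with dex between 30.0% and 37.6%. MT1F was between 2.12% and 2.56% of MT2A with EtOH, and from 3 hours on was between 0.887% and 1.17% with dex. MT1A was between 1.63% and 2.39% of MT2A with EtOH and between 0.642% and 1.07% with dex. MT1X was a slightly larger proportion of MT2A with dex than with EtOH at each time point, while MT1F and MT1A were smaller ones. MT1G went both ways, with 1.90% of MT2A with dex against 2.75% with EtOH at 1 hour, 2.75% against 3.20% at 3 hours, and a larger proportion with dex from 5 hours on (3.21% against 1.65% at 11 hours). No test was run on these proportions. Per length of transcript (RPKM), EtOH medians were 54.6 for MT2A, 23.6 for MT1X, 2.46 for MT1G, 2.15 for MT1A and 1.80 for MT1F. MT2A stood above MT1X without overlap between libraries, and the ranges of MT1G, MT1A and MT1F overlapped. Lengths were those of GENCODE release 29, in which 53 of the 143 member transcripts had the same version as in the table.

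Metallothionein genes resemble each other, so a read of 50 bases could match more than 1 of them. The transcripts of MT2A shared between 2.17% and 3.95% of their 50-base windows exactly with other counted genes, and those of MT1G shared between 10.5% and 19.9%. The transcripts of MT1X shared between 43.9% and 55.8%, in part with AC026461.1, an overlapping noncoding gene on the same strand. Allowing up to 2 mismatches, as an aligner may, the shares were between 13.7% and 14.5% for MT2A, between 27.3% and 38.4% for MT1G and between 52.4% and 62.6% for MT1X. The MT1A transcript shared 4.90% exactly and 29.1% with up to 2 mismatches. For the MT1F transcripts the shares were 0.272% and 3.59% exactly, and 9.81% and 9.05% with up to 2 mismatches. The MT1M transcript with most of that gene's counts shared 1.92% exactly and 14.2% with up to 2 mismatches. At 5 hours, the MT1X transcript with the fewest shared windows was 3.16 higher on the log2 scale. Summed with AC026461.1, MT1X gave 0.73 at 1 hour, 3.32 at 5 hours and 2.65 at 11 hours. All 10 MT1 and MT2A genes in the table, summed as 1 feature, gave log2 fold changes of 0.49 ± 0.13 at 1 hour, 1.62 ± 0.11 at 3 hours, 3.29 ± 0.12 at 5 hours, 3.24 ± 0.08 at 7 hours, 2.60 ± 0.20 at 9 hours and 2.49 ± 0.14 at 11 hours. The sum was called at each time point from 3 hours on and was not called at 1 hour (adjusted p = 0.124). The sum does not depend on how single reads were divided among the summed genes, while the values of metallothioneins taken singly can, MT1X included. Reads shared with AC026461.1 lie outside the sum. Reads that were dropped or counted more than once would change the sum too.

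The remaining 4 metallothioneins had too few counts for a test. MT1M had 50 counts in all, 41 with dex and 9 with EtOH. At 5 hours 7 and 5 counts of MT1M were seen in the dex libraries and 0 in both EtOH libraries, and at 9 hours 4 and 8 against 1 and 1. MT1M was seen in 12 of 12 dex libraries and 6 of 12 EtOH libraries. MT1E had 12 counts, MT1B had 6 and MT1H had 2, both of these with EtOH. MT1H was thus nearly undetected in both arms, and its window held as many core matches as that of MT2A. Its counted transcript shared 20.4% of 50-base windows exactly with other counted genes, and 47.4% allowing up to 2 mismatches. Whether core matches bear on the level of a gene was not tested.

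MTF1 itself moved little. It lay between 17.9 and 21.8 CPM with EtOH and between 19.03 and 25.7 CPM with dex. At 7 hours MTF1 was 24.4 and 22.3 CPM with dex against 17.9 and 20.2 with EtOH, or a log2 fold change of 0.30 ± 0.13 (adjusted p = 0.0998). The call was the nearest of any member to the threshold and was lost under every alternative run on it except leaving out EtOH replicate 2. At the other time points the log2 fold changes of MTF1 lay between 0.07 and 0.35, and none was called. Over the 6 time points together MTF1 had a dex effect (adjusted p = 0.0331), and the effect was not called as differing between time points (adjusted p = 0.804).

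Across all 23 tested members, 7 were called at 3 hours (4 higher, 3 lower), 8 at 5 hours (7 higher, 1 lower), 12 at 7 hours (9 higher, 3 lower), 6 at 9 hours and 6 at 11 hours, all of them higher at these last time points. At 1 hour 1 member was called. Among all features, 0.864% were called in either direction at 1 hour, 12.9% at 3 hours, 23.1% at 5 hours, 25.8% at 7 hours, 18.2% at 9 hours and 8.58% at 11 hours. Called lower were 0.342% at 1 hour, 5.29% at 3 hours, 11.9% at 5 hours, 12.4% at 7 hours, 8.42% at 9 hours and 3.27% at 11 hours. Of 6 tested exporters, 2 were called at 3 hours, 2 at 7 hours and none at 1, 5, 9 or 11 hours by edgeR or DESeq2. At an unadjusted p under 0.05 there was 1 exporter at 1 hour, 1 at 5 hours and 0 at 9 and 11 hours. Of 11 tested importers, none was called at 1 hour by edgeR or DESeq2 (0 at an unadjusted p under 0.05), 2 at 3 hours, 3 at 5 hours, 4 at 7 hours, 1 at 9 hours and 2 at 11 hours, shares between 0% and 36.4% that lay on both sides of the share of all features. Over the 6 time points the median log2 fold change of the exporters lay between -0.09 and 0.20 and that of the importers between -0.02 and 0.13.

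**Figure D4:**
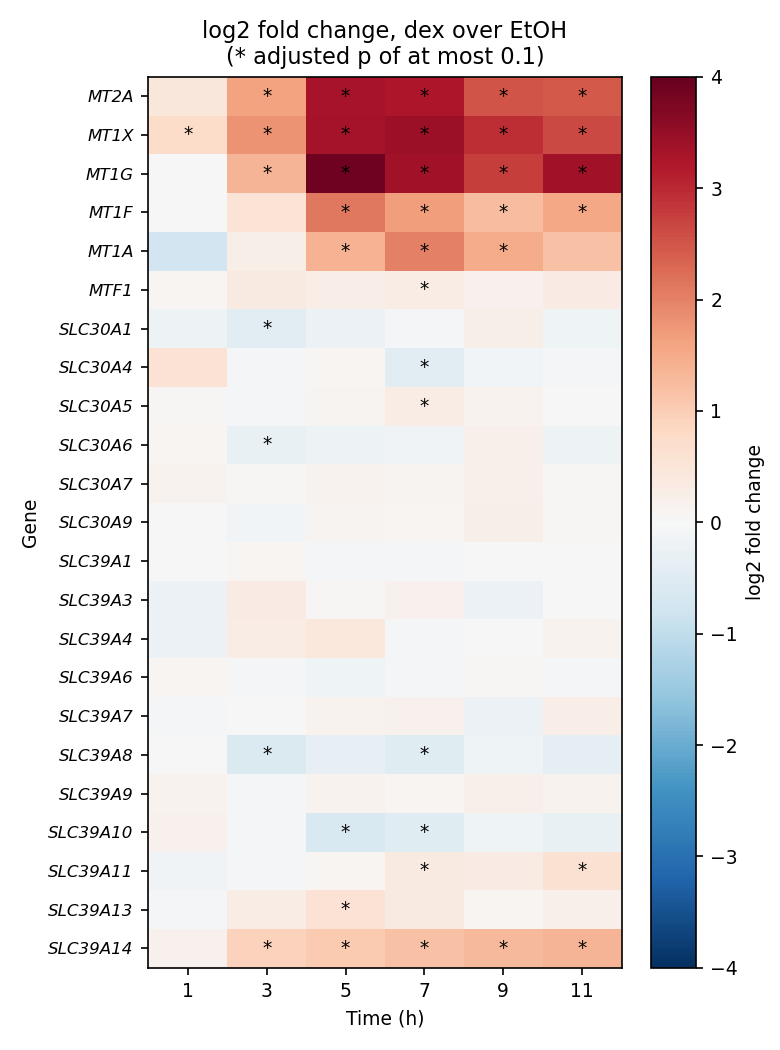
log2 fold change of dex over EtOH (colour) for the 23 tested members (rows) at 6 time points in hours (columns), with a star where the adjusted p was at most 0.1. The 5 metallothioneins and SLC39A14 form the rows with stars at 3 or more consecutive time points, and the remaining rows are paler with at most 2 stars each, which for SLC39A10 are at 5 and 7 hours.

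SLC39A14 (also known as ZIP14), an importer of zinc that also carries iron and manganese, was the transporter with the largest rise. It lay between 226 and 274 CPM with EtOH. At 1 hour SLC39A14 was 273 and 273 CPM with dex against 246 and 244 with EtOH, and was not called (log2 fold change of 0.16 ± 0.10). At 3 hours it was 496 and 498 CPM with dex against 274 and 249 with EtOH, or a log2 fold change of 0.92 ± 0.10. At 5 hours the log2 fold change was 1.05 ± 0.10, at 7 hours 1.18 ± 0.07 and at 9 hours 1.29 ± 0.11. At each of these time points both dex libraries were above every EtOH library. At 11 hours SLC39A14 was 626 and 590 CPM with dex against 247 and 226 with EtOH, a 2.56-fold rise (log2 fold change of 1.36 ± 0.14, adjusted p = 2.37e-05). Its dex effect differed between time points (adjusted p = 2.28e-07). The point values of SLC39A14 rose from each time point to the next, whereas those of MT2A and MT1X were highest at 5 or 7 hours. Each step after 3 hours was close in size to the standard errors, and no test was run on single steps. Of its 10 tested transcripts, 6 were called higher at 3 hours, 8 at 5 hours, 7 at 7 and 9 hours and 6 at 11 hours. These transcripts share most of their sequence, so their counts are not independent. Its transcripts shared 0% of 50-base windows with other counted genes.

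SLC39A10 and SLC39A8, both importers at the plasma membrane, fell at some time points. SLC39A10 was 121 and 117 CPM with dex at 5 hours against 162 and 201 with EtOH. The groups did not overlap, and the log2 fold change was -0.61 ± 0.11 (adjusted p = 1.62e-05). At 7 hours it was 141 and 151 CPM with dex against 196 and 213 with EtOH, or a log2 fold change of -0.48 ± 0.08. SLC39A10 was the only member called lower at consecutive time points, and 8.62% of all features were. At 9 hours the log2 fold change of SLC39A10 was -0.16 ± 0.12 and at 11 hours -0.30 ± 0.14, neither of them called. SLC39A8 was 16.8 and 21.7 CPM with dex at 3 hours against 29.3 and 28.1 with EtOH, or a log2 fold change of -0.58 ± 0.14 (adjusted p = 0.00642). This call was lost without dex replicate 1 (adjusted p = 0.189). At 7 hours SLC39A8 was again called lower, at -0.48 ± 0.12, a call lost without dex replicate 2 (adjusted p = 0.131). At 5 hours its log2 fold change was -0.34 ± 0.17 and was not called.

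**Figure D5:**
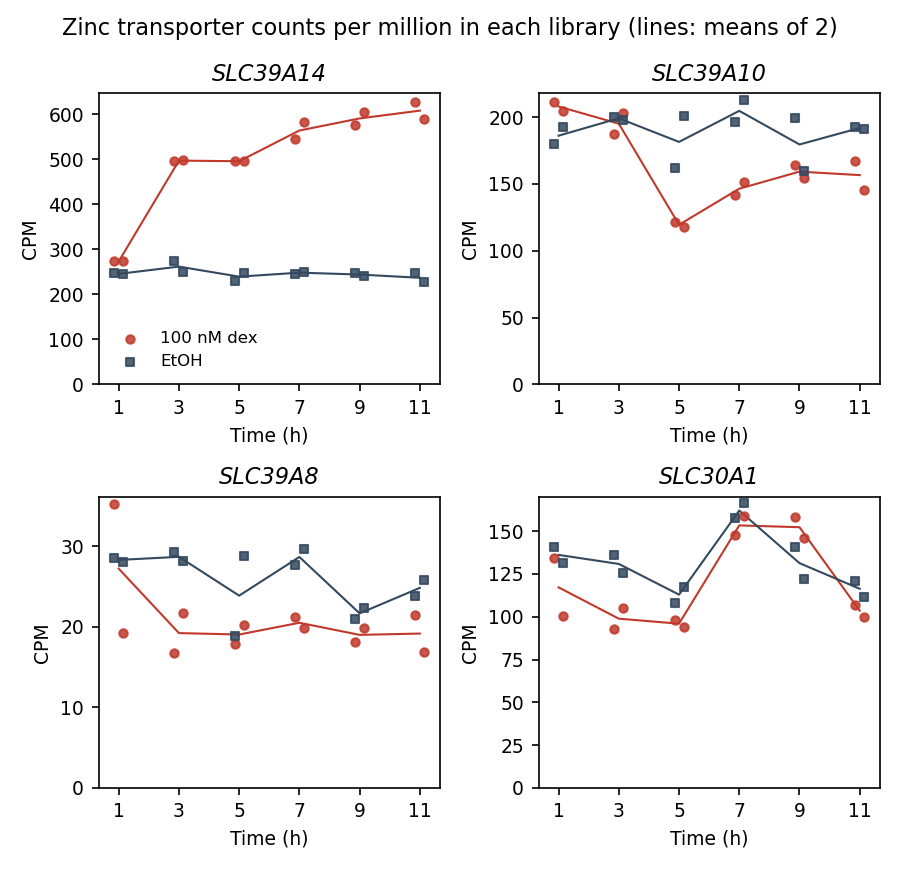
CPM against time in hours for the importers SLC39A14, SLC39A10 and SLC39A8 and the exporter SLC30A1, with a point for each library and lines through the means of 2 libraries. SLC39A14 with dex reached 626 and 590 CPM at 11 hours, against 247 and 226 CPM with EtOH.

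Smaller rises were called for 2 further importers. SLC39A11 was 25.3 and 22.5 CPM with dex at 7 hours against 16.5 and 20.9 with EtOH, or a log2 fold change of 0.36 ± 0.13 (adjusted p = 0.0544). At 11 hours it was 28.6 and 25.1 CPM against 20.0 and 14.9, a log2 fold change of 0.62 ± 0.20 (adjusted p = 0.0876). Both calls of SLC39A11 were lost under DESeq2, that at 7 hours also without dex replicate 1, dex replicate 2 or EtOH replicate 1, and that at 11 hours also without EtOH replicate 1 or EtOH replicate 2. SLC39A13, an importer of the secretory pathway, was 15.4 and 15.2 CPM with dex at 5 hours against 10.7 and 9.92 with EtOH. Its log2 fold change was 0.57 ± 0.18 (adjusted p = 0.0165), and the call was lost without EtOH replicate 2 (adjusted p = 0.112) and under DESeq2. SLC39A1, SLC39A3, SLC39A4, SLC39A6, SLC39A7 and SLC39A9 were called at no time point.

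SLC30A1 (also known as ZNT1), the exporter at the plasma membrane and a known target of MTF1, was called higher at no time point in the main fits. At 3 hours it was 92.7 and 105 CPM with dex against 136 and 125 with EtOH, or a log2 fold change of -0.41 ± 0.11 (adjusted p = 0.00793). This call was lost without dex replicate 1 (adjusted p = 0.169) or EtOH replicate 1 (adjusted p = 0.139). At the other 5 time points the log2 fold change of SLC30A1 lay between -0.24 and 0.22 and was not called. Over the alternatives, fits with 1 library left in an arm among them, it lay between -0.43 and -0.01 at 1 hour. At 9 hours it lay between 0.12 and 0.33 over the alternatives. At least 1 alternative called SLC30A1 lower at 1 hour, and at least 1 called it higher at 9 hours. At 5 hours, when MT2A was 9.88-fold higher, SLC30A1 was 98.0 and 93.9 CPM with dex against 108 and 118 with EtOH. Neither zinc nor the activity of MTF1 was measured, and the cause of this difference between the genes was not tested. SLC30A1 was also the only member whose level with EtOH differed between time points (adjusted p = 0.0350), from 108 to 166 CPM, and 3.33% of all features were called in that test. That call was lost without any 1 of EtOH replicate 1 at 5 hours, EtOH replicate 1 at 7 hours or EtOH replicate 2 at 7 hours.
The RefSeq window of SLC30A1 (chr1:211579112-211579411, minus strand) held these core matches, printed to set beside those of MT2A and read on the plus strand.
SLC30A1, chr1:211579196-211579218: ctttgcttTGCACTCggaacccc
SLC30A1, chr1:211579123-211579145: acggcagcTGCACTCggcccggt

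Other exporters load zinc into vesicles and the secretory pathway. SLC30A6 was 93.9 and 98.5 CPM with dex at 3 hours against 125 and 110 with EtOH, or a log2 fold change of -0.30 ± 0.11 (adjusted p = 0.0701). SLC30A4 was 9.21 and 11.1 CPM with dex at 7 hours against 15.3 and 11.8 with EtOH, or a log2 fold change of -0.44 ± 0.17 (adjusted p = 0.0666). At 1 hour SLC30A4 lay the other way, at 12.3 and 15.8 CPM with dex against 8.87 and 9.86 with EtOH, or a log2 fold change of 0.57 ± 0.19 that was not called (adjusted p = 0.397) but was called with the replicate number as a block (adjusted p = 0.035). SLC30A5 was 119 and 128 CPM with dex at 7 hours against 92.9 and 106 with EtOH, or a log2 fold change of 0.31 ± 0.09 (adjusted p = 0.00674). SLC30A6, SLC30A4 and SLC30A5 were each called at 1 time point alone. Each was also lost without at least 1 library, namely dex replicate 1 or EtOH replicate 1 for SLC30A6, dex replicate 1, dex replicate 2 or EtOH replicate 1 for SLC30A4, and dex replicate 1 or dex replicate 2 for SLC30A5. The calls of SLC30A6 and SLC30A4 were also lost under DESeq2. SLC30A7 and SLC30A9 were called at no time point. Together with the 6 importers never called, their log2 fold changes lay between -0.24 and 0.42.

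The transporters with too few counts for a test were SLC30A2, SLC30A3, SLC30A8, SLC30A10, SLC39A2, SLC39A5 and SLC39A12. SLC30A3 had 129 counts over 24 libraries, SLC30A2 had 51 and SLC30A10 had 18. SLC30A10, a manganese exporter, had 4 of its 18 counts with dex. SLC39A5 had 10 counts, SLC39A2 had 5 and SLC30A8, the exporter of insulin granules, had 2. SLC39A12 had 0 counts in 24 libraries. A count of 0 in a single library allows up to 3 expected counts there by counting error alone, and 0 in all 24 together allows far fewer per library.

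Taken over the 6 time points in one fit of 24 libraries, 13 of the 23 tested members had a dex effect, and 30.4% of all features did. These were the 5 metallothioneins, MTF1, SLC30A1, SLC39A7, SLC39A8, SLC39A10, SLC39A11, SLC39A13 and SLC39A14. SLC39A7, an importer that releases zinc from the endoplasmic reticulum, was called in this test (adjusted p = 0.0933) but at no single time point. The dex effect differed between time points for 7 members, and 13.8% of all features were called in that test. Being called in the same direction at 2 or more consecutive time points held for 6 members in the higher direction. They were the 5 metallothioneins and SLC39A14, and 9.70% of all features were called so. Under DESeq2 MT1A was called at 7 hours alone and so not at consecutive time points.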

How the data were processed

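RNA-seq of A549 cells exposed to dex or EtOH was analysed, and the labels gave treatment, time and replicate. Times are those of the duration field (1 to 11 hours), since the treatment protocol names 1 hour throughout. The study's methods state triplicates, and 2 replicates per group were analysed here. The authors mapped stranded single-end reads of 50 bases to GENCODE release 19 transcripts with Bowtie and counted reads per transcript with samtools idxstats, and the deposited values are these raw counts. The placing of reads with several matching transcripts, and the use of strand in counting, are not given in the sources used here. The submitters' processing notes name hg19 and SAMtools. RNA integrity numbers were high in all samples by the study's methods.

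Of 119207 transcripts, 110262 (94.1% of counts) were joined to GENCODE release 29 genes by identifier without version and summed per gene, and the rest stayed single features. The row for unplaced reads held 0 counts. Time points were fitted one by one (2 dex and 2 EtOH libraries) with edgeR 4.0.16 in R 4.3.3, using TMM scaling, filterByExpr over 12 groups (19897 of 42072 features kept), the robust quasi-likelihood F-test, and Benjamini-Hochberg adjustment over all features called at 0.1 or less. Dividing a log2 fold change by the root of its F statistic gave its standard error. Joint fits of 24 libraries tested a dex effect at any time and its change with time, and a fit of 12 EtOH libraries tested time alone. With 2 libraries per group, calls rest on dispersions shared between features, and the biological coefficient of variation ranged from 6.48% at 7 hours to 12.7% at 11 hours. The fits were tested on simulated data. Alternatives were DESeq2 1.42.0, its size factors in edgeR, no filter, at least 10 counts in every library, a replicate block, a threshold of 0.05, one fit of 24 libraries, 1 transcript per gene, summed metallothioneins, and each library left out. MT1X summed with AC026461.1 was added after the data were seen.

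The members, and the lists of GC targets, cell markers, copper genes, iron genes and other metallothionein genes, were chosen with earlier results of these data known. Every member is named. Values in every library are given for MT2A, MT1X and members called in 1 direction at consecutive time points, at the time of their largest called change. Values in every library for the members called at single or separate time points were added after their values were seen. Of 8 other metallothionein genes, 3 were in the table (MT3, MT4 and MT1HL1), with at most 2 counts in a library. Promoter windows are RefSeq's on GRCh38.p14, and figures were drawn with matplotlib 3.10.9.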

Additional observations from a re-analysis of the deposited data

Results flagged for a closer look

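The dex effect differed between time points by the joint test of 24 libraries for 7 members. The adjusted p was 3.13e-09 for MT1X, 4.22e-08 for MT2A and 2.28e-07 for SLC39A14. It was 4.32e-05 for MT1G and 0.0483 for MT1A. It was 0.00583 for SLC39A10, whose log2 fold change was 0.17 at 1 hour and -0.61 at 5 hours. It was 0.0886 for SLC39A11, whose log2 fold change was -0.13 at 1 hour and 0.62 at 11 hours. MT1F, with an adjusted p of 0.122, was not called in this test. The test compares all 6 time points together and does not say which of them differ.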

How the results depend on the processing

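Over all alternatives, 1677 values of single members at a time point were recomputed. Of these, 1574 stayed on their side of the threshold, 74 lost a call, 29 gained one and none changed sign with a call. Values called in neither fit were not compared in direction, and some of them changed sign. Examples are SLC39A8 at 1 hour (-0.55 to 0.32) and SLC30A5 at 11 hours (-0.20 to 0.19). The calls of MT2A, MT1X, MT1G and SLC39A14 at 5, 7, 9 and 11 hours were kept in all 204 recomputed values. For MT2A, MT1X and MT1G these include the summed metallothioneins, which are mostly MT2A and MT1X and cannot speak for MT1G. They also include fits with 1 library left in an arm, in which the adjusted p was often far smaller than in the full fit. Keeping a call in such a fit is therefore a weak check. At 1 hour the count of 1 called member became 0 with DESeq2, with its size factors in edgeR, with at least 10 counts in every library, with 1 transcript per gene and with a threshold of 0.05. Without any filter, the count of members changing with time in EtOH went from 1 to 3.

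Leaving out 1 library gave 0 to 4 called members at 1 hour, 4 to 7 at 3 hours, 7 to 9 at 5 hours, 6 to 12 at 7 hours, 4 to 11 at 9 hours and 4 to 9 at 11 hours. The lone library left in an arm was assumed to vary like those of the other arm. At 1 hour the count was 4 without dex replicate 1 and 0 without each of the other 3 libraries. At 3 hours it was 4 without dex replicate 1, at 7 hours 6 without dex replicate 2, and at 9 hours 11 without EtOH replicate 1 and 10 without EtOH replicate 2. The count with a dex effect over time ranged from 10 to 15, the count whose effect changed with time from 5 to 10, and the count changing in EtOH from 0 to 2, with 0 without EtOH replicate 1 at 5 hours or either EtOH library at 7 hours and 2 without EtOH replicate 2 at 5 hours or either EtOH library at 9 hours. The cause of these changes was not tested.

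Replicate numbers are shared by the groups, but samples of 1 number did not deviate together at every time point (correlations between -0.06 and 0.14), so the numbers were not taken as pairs. With the replicate number as a block, 3 members were called at 1 hour (MT1X, MT2A and SLC30A4, the last at 0.58 on the log2 scale), and the counts at the other time points stayed within 1.5 times. At this depth 11 members did not pass the filter on low counts, and 2 libraries per group leave small changes undetectable.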

Other observations

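Genes that handle iron and copper were described beside the zinc genes from lists written for this purpose. Of 18 listed iron genes, 15 were tested, of which 1 was called higher and 3 lower at 3 hours, 2 higher and 6 lower at 5 hours, 1 higher and 6 lower at 7 hours, 1 higher and 3 lower at 9 hours, and 2 lower at 11 hours. Of all features, 7.66% were called higher and 5.29% lower at 3 hours. The shares were 11.2% higher and 11.9% lower at 5 hours, and 13.4% higher and 12.4% lower at 7 hours. They were 9.79% higher and 8.42% lower at 9 hours, and 5.31% higher and 3.27% lower at 11 hours. The median log2 fold change of the iron list was -0.18 at 5 hours and -0.27 at 7 hours. SLC40A1, the exporter of iron, fell at each time point from 3 hours on, with log2 fold changes of -1.31 ± 0.15 at 3 hours and -1.70 ± 0.19 at 11 hours. HMOX1, the enzyme that frees iron from heme, also fell at each of these time points, by 1.44 ± 0.15 at 11 hours on the log2 scale. The ferritin subunits went in opposite directions, with FTH1 at 0.52 ± 0.11 and FTL at -0.58 ± 0.10 at 5 hours, both called. SLC11A2, CYBRD1 and HFE, which take part in iron uptake and its control, were called lower at 5 and 7 hours.

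All 10 copper genes were tested. At 5 hours 4 of them were called higher, and at 7 hours 3 were called higher and 1 lower. None was called at 1, 3, 9 or 11 hours. Of all features, 11.2% were called higher at 5 hours, and 13.4% higher and 12.4% lower at 7 hours. ATP7B, a pump that exports copper, rose by 0.60 ± 0.21 at 5 hours and 0.67 ± 0.19 at 7 hours on the log2 scale. SCO2, which delivers copper to cytochrome c oxidase, rose by 0.59 ± 0.22 and 0.57 ± 0.18 at the same time points. At 9 hours ATP7B stood at -0.07 ± 0.22 and SCO2 at 0.06 ± 0.19. At 11 hours ATP7B stood at -0.15 ± 0.23 and SCO2 at 0.63 ± 0.22, and none of these values was called. Among the markers of other cells, COL1A1, a collagen gene, was called higher at 3 hours (0.56 ± 0.17) and lower at 5, 7 and 9 hours (-1.21 ± 0.21 at 5 hours), and did not exceed 268 counts in a library.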
